A study of Homo sapiens with 24 samples.

Results

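A549 cells carrying an acetylation-deficient form of SIRT6, named K3R, were compared with A549 cells carrying the empty vector (Ctr). The comparison comprises 6 of the 24 RNA-seq libraries of the study, chosen by their labels: 3 of K3R and 3 of Ctr, matched by replicate number. A549 is an established human line of non-small cell lung carcinoma. All the cells were transduced with lentivirus and stably overexpressed FLAG-tagged SIRT6 or its empty vector, so Ctr cells also went through transduction, and they kept their own SIRT6 gene. The other groups used below are A549 carrying the K3Q form, an acetylation mimetic, or wild-type SIRT6 (WT), and K3R and Ctr in H1299, a second established line of the same cancer type. Which lysines were changed is not stated in the labels, nor how many clones or transductions a line stands for, nor the level of the SIRT6 protein. In each group, libraries 1-1 and 1-2 are biological replicate 1 in batches 1 and 2, and library 2-2 is biological replicate 2 in batch 2. The labels do not say whether 1-1 and 1-2 share a culture, so part of the spread behind the p-values may be technical.

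SIRT6 is a nuclear enzyme that uses NAD to remove acetyl and longer acyl groups from lysines, chiefly on histone H3, and it is known for silencing transcription and for roles in DNA repair and telomere upkeep. It is also known as a corepressor of glycolytic genes that the transcription factor HIF1A drives. Arginine in place of a lysine keeps the positive charge and cannot be acetylated, whereas glutamine resembles an acetylated lysine. A549 cells combine keratins and some junction proteins of the epithelium with genes of a mesenchymal state.

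Levels are given in CPM, counts scaled to the size of their library with TMM factors. The 3 K3R libraries held 16480828 to 17603099 counts over genes and the 3 Ctr libraries 16434492 to 18414547. The share of mitochondrially encoded transcripts was 6.19% to 7.68% in K3R and 6.04% to 6.87% in Ctr. The K3R and Ctr libraries parted first by replicate. Principal component 1 of the 12 A549 libraries took 37.7% of the variance of log2 CPM. On it library 2-2 scored 51.08 in K3R and 53.74 in Ctr, and the other 4 of these groups scored between -31.57 and 1.47. K3Q library 2-2 did not follow, at -13.01. The summed A549 markers stood at 21270 to 30810 CPM in K3R and 19900 to 37390 CPM in Ctr. CDKN2A, a gene that A549 cells are known to have lost, had 0.0578, 0 and 0 CPM in K3R libraries 1-1, 1-2 and 2-2, and 1.30, 0 and 0 CPM in Ctr. COL1A2, a fibroblast collagen, had 1.39, 0 and 0 CPM in K3R and 0, 0.184 and 0 CPM in Ctr, and the T cell gene CD3E had 0.173, 0 and 0 CPM in K3R and 0 in all of Ctr. Ctr library 1-1 therefore stood apart in CDKN2A, and K3R library 1-1 in COL1A2 and CD3E. The origin of these reads was not tested, nor their part in the results beyond leaving out each library.

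SIRT6 transcript was raised 84.1-fold in K3R. In these bulk libraries, more cells with a transcript and more transcript per cell cannot be told apart. It stood at 1369, 2265 and 3239 CPM in K3R libraries 1-1, 1-2 and 2-2, against 24.2, 22.4 and 31.4 CPM in the matched Ctr libraries. Every K3R library lay far above every Ctr library, and the spread among the K3R libraries was wide. The log2 fold change was 6.39 ± 0.28 (SE) with an adjusted p of 1.9e-06 (edgeR quasi-likelihood test on all 12 A549 libraries with construct and batch as terms, Benjamini-Hochberg over 16120 genes). The endogenous gene lies on the minus strand of GRCh38 chromosome 19 (4174109 to 4182604), and its reads could not be separated from those of the construct, nor the mutant from the wild type. None of the other 6 sirtuins passed. SIRT1, the best studied nuclear member of the family, had 47.4, 43.6 and 49.0 CPM in K3R and 46.4, 44.4 and 46.4 CPM in Ctr. Among the mitochondrial members, SIRT3 had a log2 change of -0.06 ± 0.11, SIRT4 of -0.44 ± 0.52 and SIRT5 of -0.17 ± 0.23. Of 16 measured genes of NAD synthesis and use, 0 passed, and NAMPT, the rate-limiting enzyme of NAD salvage, averaged 255 ± 77.7 CPM in K3R and 229 ± 85.9 CPM in Ctr (SD, n = 3 each).

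With K3R, 19 of 16120 genes passed an adjusted p of 0.05, which is 0.118% of those tested. Higher in K3R were 11 genes (0.0682%): SIRT6, SPANXB1, NGFR, KIF1A, GALR2, DHRS2, L1CAM, NID2, EPCAM, LSR and LAMB3. Lower in K3R were 8 genes (0.0496%): HIF1A, MAP2K6, FBN2, MFGE8, GYG2, PDE1C, JCAD and LINC02532. The risen genes apart from SIRT6 changed 2.38-fold to 6.18-fold and the fallen ones 1.44-fold to 4.44-fold. The 19 genes were chosen by a test of these same libraries, which largely fixes that their libraries agree in sign and lie apart. All 19 had the same sign in the 3 differences matched by library number. In 16 of them the 3 K3R libraries did not overlap the 3 Ctr libraries, and HIF1A, MAP2K6 and LINC02532 overlapped. Over all genes tested, non-overlap occurred in 3.42% with K3R above and in 3.13% with K3R below.

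K3R and Ctr libraries of the same number deviated together from their group means, so the replicate number was also used as a block. In that fit 88 genes passed (0.546%), 57 higher (0.354%) and 31 lower (0.192%), and the 19 genes above were all among them. DESeq2 called 162 genes, 91 higher and 71 lower. The number moved with the fit: with only the 6 libraries compared, 1 gene (SIRT6) passed with batch as a term and 301 passed with the block. Leaving out 1 library gave 5 calls without K3R 1-1, 7 without K3R 1-2, 15 without K3R 2-2, 9 without Ctr 1-1, 6 without Ctr 1-2 and 19 without Ctr 2-2. Of the 15 calls without K3R 2-2, 11 were among the 19 genes above, and of the 19 calls without Ctr 2-2, 12 were. In the other 4 fits every call was among them. SIRT6, SPANXB1, GALR2, DHRS2 and LSR passed in each of those 6 fits. The K3Q libraries also enter the spread behind the 19 calls. With them left out and batch as a term, 6 genes passed: SIRT6, SPANXB1, GALR2, DHRS2, LSR and MFGE8. The other 13 of the 19 kept their direction and did not pass. Batch 1 holds 1 library of each group and gives no test of its own. In batch 2 alone, with 2 libraries of each group, the 18 genes other than SIRT6 kept their direction and did not pass.

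**Figure D1:**
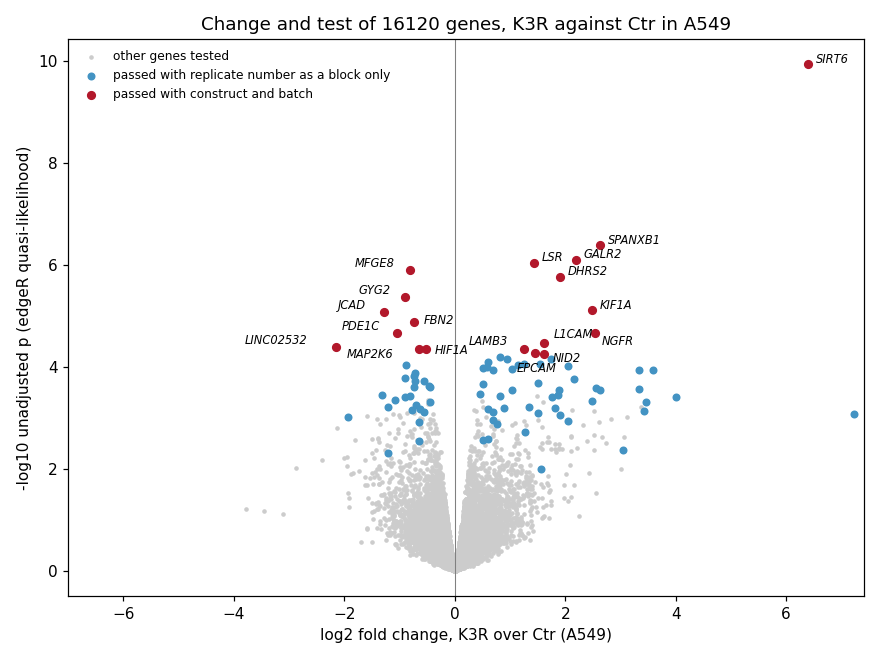
Each point is 1 of 16120 genes in A549, with the log2 fold change of K3R over Ctr on the x axis and the -log10 of the unadjusted p on the y axis. Red points are the 19 genes that passed with construct and batch, blue points those that passed only with the replicate number as a block. SIRT6 stands alone at a log2 change of 6.39, and the other named genes lie between -2.15 and 2.63. The blue point at 7.23 is RP1-29C18.11, which had 0 counts in Ctr, so its fitted change gives no size.

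**Figure D2:**
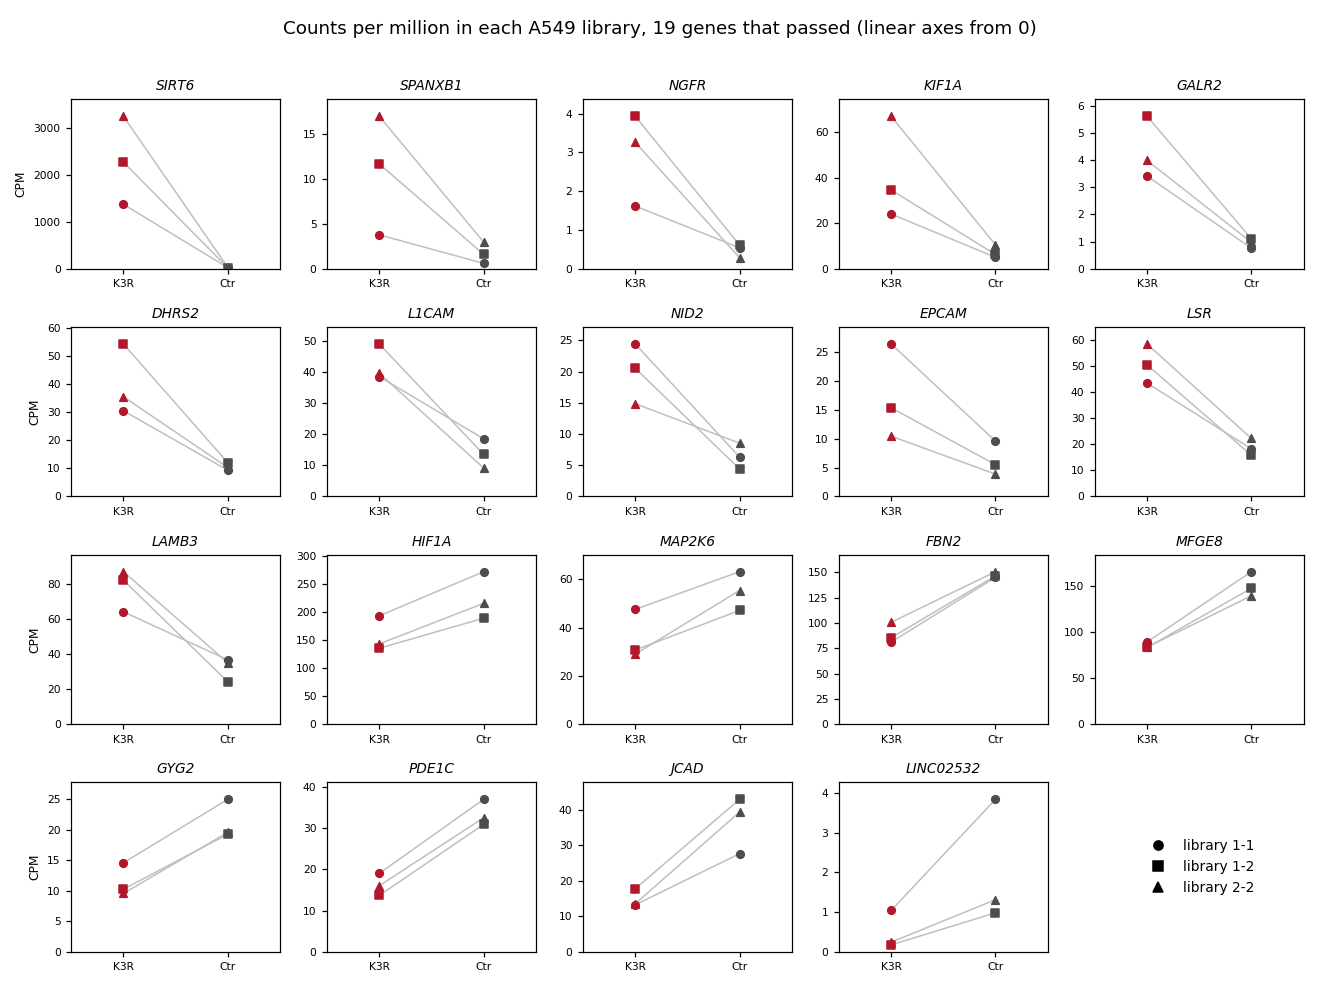
CPM on the y axis in each K3R library (left, red) and each Ctr library (right, grey) for the 19 genes that passed, each panel with its own linear axis from 0. Grey lines join libraries of the same number. Lines slope the same way in all 3 pairs of each gene, and only HIF1A, MAP2K6 and LINC02532 overlap in level.

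A few epithelial genes rose in K3R. LSR, a lipoprotein receptor that also seals the corners where 3 epithelial cells meet, rose 2.69-fold, and EPCAM, the epithelial cell adhesion molecule, rose 2.75-fold. LAMB3, the beta-3 chain of laminin-332 in epithelial basement membrane, rose 2.38-fold. LSR had 43.4, 50.4 and 58.4 CPM in K3R libraries 1-1, 1-2 and 2-2, against 18.2, 15.7 and 22.2 CPM in Ctr. LAMB3 had 64.1, 82.1 and 86.9 CPM in K3R, against 36.7, 24.2 and 35.0 CPM in Ctr. Neither gene overlapped between the groups. EPCAM had 26.5, 15.4 and 10.4 CPM in K3R, against 9.61, 5.51 and 3.87 CPM in Ctr. EPCAM overlapped in no library, its levels varied alike over the library numbers of both groups, and its 3 matched log2 differences were close together at 1.45, 1.46 and 1.41. The adjusted p was 0.0037 for LSR, 0.0485 for EPCAM and 0.0435 for LAMB3 (edgeR, as above), and 0.000458, 0.000919 and 0.0109 with the block. LSR passed without any 1 library. EPCAM passed in 1 of the 6 fits that left out a library (without K3R 2-2) and LAMB3 in 1 (without Ctr 1-1), with adjusted p up to 0.234 and 0.196 in the fits without the others and log2 changes of 1.32 to 1.61 and 1.03 to 1.53.

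Of 39 measured genes of epithelial junctions and keratins, 2 passed as higher and 0 as lower, 3 and 0 with the block. The third was ESRP1, an epithelial splicing regulator, with 3.35, 0.983 and 1.51 CPM in K3R and 0.378, 0 and 0.171 CPM in Ctr (adjusted p 0.0924, and 0.035 with the block). In 9 of the 39 the K3R libraries lay above all Ctr libraries and in 1 below, beside 3.42% and 3.13% of all genes. Over all genes, 0.0682% passed as higher, and 0.354% with the block. This list was chosen with earlier results of these data known, so its counts are no result about epithelial genes as a group. The median log2 change over the list was 0.18, against -0.0004 over all genes, and 76.9% of its members were above 0, against 49.9% of all genes. OVOL2, a repressor of mesenchymal genes in epithelia, averaged 1.25 ± 0.134 CPM in K3R and 0.282 ± 0.0971 CPM in Ctr without passing (adjusted p 0.144, and 0.0661 with the block). The abundant keratin KRT7 averaged 2503 ± 192 CPM in K3R and 2833 ± 134 CPM in Ctr and did not pass (adjusted p 0.712). CLDN2, a claudin of leaky epithelia, averaged 14.1 ± 8.89 CPM in K3R and 39.1 ± 29.5 CPM in Ctr and did not pass either (adjusted p 0.255). CDH1, the epithelial cadherin, averaged 39.43 ± 32.09 CPM in K3R and 47.17 ± 19.45 CPM in Ctr and did not pass (adjusted p 0.765). The keratins KRT8, KRT18 and KRT19 had log2 changes of -0.13, -0.18 and -0.19 and did not pass.

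Of 30 measured genes of mesenchymal transition, 0 passed in either direction, and with the block 1 passed as lower. This was ZEB2, a zinc finger repressor of epithelial genes, with 0.924, 1.16 and 1.81 CPM in K3R libraries against 3.72, 3.55 and 7.63 CPM in Ctr. All K3R libraries lay below all Ctr libraries, and the fitted level was 3.83-fold lower in K3R (log2 change -1.94 ± 0.44, adjusted p 0.161, and 0.0401 with the block). Its exons overlap an antisense gene, ZEB2-AS1, and the strand setting of the counting is not given. The paralog ZEB1 averaged 16.1 ± 0.872 CPM in K3R and 19.4 ± 1.69 CPM in Ctr, and the secreted matrix protein SPARC averaged 4.34 ± 2.10 and 11.7 ± 6.38 CPM in K3R and Ctr. Neither passed with or without the block. The list's median log2 change was -0.17, with K3R libraries above Ctr in 0 members and below in 3. Over all genes, 3.42% lay above without overlap and 3.13% below, and 0.192% passed with the block as lower. Fibroblast markers summed to 21.4 to 26.5 CPM in K3R and 13.3 to 26 CPM in Ctr, with DPT at 0 in all 6 libraries. Endothelial markers summed to 67.1 to 72.5 CPM in K3R and 59.1 to 76.1 CPM in Ctr, with TIE1 and EMCN at 0, and leukocyte markers to 9.30 to 11 CPM in K3R and 9.86 to 11.6 CPM in Ctr, with CD3D at 0.

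Other basement membrane and microfibril genes moved in both directions. NID2, a nidogen that links laminin to collagen IV, rose 3.05-fold, with 24.4, 20.5 and 14.9 CPM in K3R and 6.32, 4.41 and 8.54 CPM in Ctr. Its paralog NID1 had 8.20, 8.50 and 10.9 CPM in K3R and 14.4, 20.0 and 17.3 CPM in Ctr. The nidogens thus lay without overlap on opposite sides, and NID1 passed only with the block (adjusted p 0.0741, and 0.0278 with the block). NID2 passed at an adjusted p of 0.0485 (0.0157 with the block). It passed in 1 of 6 fits that left out a library (without Ctr 2-2), with log2 changes of 1.44 to 1.98 and adjusted p up to 0.226, and its exons overlap RTRAF on the other strand. FBN2, a fibrillin of extracellular microfibrils, had 81.0, 85.4 and 101 CPM in K3R and 145, 146 and 151 CPM in Ctr. MFGE8, a secreted protein that bridges dying cells to phagocyte integrins, had 89.1, 83.1 and 83.5 CPM in K3R and 165, 147 and 139 CPM in Ctr. Both fell without overlap between groups, FBN2 by 1.66-fold (adjusted p 0.0216) and MFGE8 by 1.77-fold (adjusted p 0.00407). MFGE8 lost its call without K3R 1-1 (adjusted p 0.0565), and FBN2 passed without K3R 2-2 or Ctr 2-2 only (log2 changes -0.81 to -0.68, adjusted p up to 0.199). Exons of FBN2 overlap SLC27A6 on the opposite strand.

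Of 19 measured basement membrane genes 2 passed as higher and 0 as lower, and of 20 fibrillin and elastic fibre genes 0 and 2. Over all genes, 0.0682% passed as higher and 0.0496% as lower, and with the block 0.354% and 0.192%. Both lists were chosen with earlier results of these data known, so their counts are no result about such genes as a group. The median log2 changes of these lists were -0.02 and 0.01, beside -0.0004 over all genes. FBN1, the main fibrillin of adult tissue, averaged 25.1 ± 2.55 CPM in K3R and 31.4 ± 6.86 CPM in Ctr and did not pass (adjusted p 0.646). HSPG2, the heparan sulfate proteoglycan perlecan, averaged 237 ± 33.5 CPM in K3R and 293 ± 22.7 CPM in Ctr and did not pass (adjusted p 0.52). Of 32 measured genes for collagens and their processing, 22 collagen chains and 10 modifying enzymes or chaperones, 0 passed. With the block 1 passed as higher: COL4A4, a chain of the specialised collagen IV of the kidney filter, had 35.1, 12.4 and 9.66 CPM in K3R and 19.4, 4.90 and 5.07 CPM in Ctr (adjusted p 0.0561, and 0.0261 with the block). Its levels overlapped, and within each number K3R was the higher.

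Some genes best known from neurons rose in K3R, to low or moderate levels. KIF1A, a kinesin motor that carries synaptic vesicle precursors along axons, rose 5.62-fold, and L1CAM, an axonal adhesion molecule, rose 3.07-fold. KIF1A had 24, 34.5 and 66.9 CPM in K3R and 5.02, 6.25 and 10.5 CPM in Ctr. L1CAM had 38.6, 49.1 and 39.7 CPM in K3R and 18.6, 13.5 and 9.17 CPM in Ctr. The groups did not overlap for either gene, and KIF1A was highest in library 2-2 of both groups. GALR2, a receptor for the neuropeptide galanin, had 3.41, 5.61 and 3.99 CPM in K3R and 0.756, 1.10 and 0.968 CPM in Ctr. NGFR, the low-affinity neurotrophin receptor, had 1.62, 3.93 and 3.26 CPM in K3R and 0.540, 0.612 and 0.285 CPM in Ctr. These receptors rose 4.57-fold and 5.77-fold and remained at low levels. Adjusted p was 0.0153 for KIF1A, 0.0427 for L1CAM, 0.0037 for GALR2 and 0.0291 for NGFR (edgeR), and 0.000224, 0.00414, 0.000919 and 0.0077 with the block. GALR2 passed in each fit that left out a library, and NGFR in 0 of 6 (adjusted p up to 0.175). KIF1A lost its call without K3R 1-1, Ctr 1-1 or Ctr 1-2 (adjusted p up to 0.0905) and L1CAM without K3R 1-1, 1-2 or 2-2 or Ctr 1-2 (adjusted p up to 0.196), and exons of L1CAM and NGFR overlap other genes on the opposite strand.

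Of 34 measured genes of axons and synapses, 3 passed as higher and 0 as lower, and 7 and 0 with the block. The added ones were INA, MAPT, KIF5C and NFASC. Over all genes, 0.0682% passed as higher, and 0.354% with the block, where 0.192% passed as lower. This list was chosen with earlier results of these data known, so its counts are no result about axonal genes as a group. MAPT, the microtubule protein tau, had 14.7, 9.78 and 15.7 CPM in K3R and 8.42, 5.94 and 5.58 CPM in Ctr. KIF5C, a neuronal kinesin heavy chain, had 4.68, 5.09 and 4.11 CPM in K3R and 2.21, 2.14 and 1.08 CPM in Ctr. NFASC, an adhesion molecule of the axon initial segment, had 2.48, 4.97 and 3.56 CPM in K3R and 1.24, 1.59 and 0.968 CPM in Ctr. These 3 did not overlap, whereas INA, an intermediate filament subunit, overlapped at 56.8, 106 and 105 CPM in K3R and 38.3, 71.0 and 80.1 CPM in Ctr. Their adjusted p lay between 0.0561 and 0.148, and between 0.0238 and 0.0378 with the block. K3R lay above Ctr without overlap in 11 of the 34 and below in 1, beside 3.42% and 3.13% of all genes. The median log2 change of the list was 0.03 and 52.9% of members were above 0, beside 49.9% of all genes. Not every axonal gene followed: DPYSL3, a cytosolic protein of growth cones, averaged 34.4 ± 13.5 CPM in K3R and 70.7 ± 28.0 CPM in Ctr without passing (adjusted p 0.24). The summed neuroendocrine markers stood at 648 to 896 CPM in K3R and 671 to 867 CPM in Ctr, with CALCA and GRP at 0 in all 6 libraries. Most of that sum was UCHL1, a ubiquitin hydrolase, at 630.7, 534.5 and 721.2 CPM in K3R and 673.3, 561.3 and 709.9 CPM in Ctr. Of 12 such genes tested, 8 had a log2 change above 0 (median 0.35). Without overlap, 2 lay above Ctr and 1 below, beside 3.42% and 3.13% of all genes. None passed, and 1 passed with the block as lower: RAB3B, a GTPase of secretory vesicles, at 16.9, 20.3 and 23.5 CPM in K3R and 33.6, 27.6 and 42.3 CPM in Ctr (adjusted p 0.144, and 0.0312 with the block). CHGA, the secretory granule protein chromogranin A, averaged 2.98 ± 0.683 CPM in K3R and 1.15 ± 0.351 CPM in Ctr and did not pass (adjusted p 0.352).

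Promoter sequences are shown for LAMB3, KIF1A and LSR, which rose, and HIF1A, which fell, since these genes stand for the epithelial, axonal and hypoxia groups and the first 2 and the last hold a motif discussed below. They are RefSeq promoters on GRCh38.p14, 250 bases before to 50 after a transcript start, 5′ to 3′ on the strand of the gene. Capitals mark the E-box CACCTG or its reverse complement CAGGTG, the sequence that ZEB and SNAI repressors are known to bind.
LAMB3, chr1:209652376-209652675, minus strand: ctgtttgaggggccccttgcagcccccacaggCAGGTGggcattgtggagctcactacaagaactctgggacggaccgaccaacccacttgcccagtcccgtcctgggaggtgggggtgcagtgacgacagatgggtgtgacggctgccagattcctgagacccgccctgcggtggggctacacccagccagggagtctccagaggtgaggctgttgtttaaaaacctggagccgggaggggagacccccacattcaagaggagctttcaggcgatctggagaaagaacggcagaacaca
KIF1A, chr2:240821354-240821653, minus strand: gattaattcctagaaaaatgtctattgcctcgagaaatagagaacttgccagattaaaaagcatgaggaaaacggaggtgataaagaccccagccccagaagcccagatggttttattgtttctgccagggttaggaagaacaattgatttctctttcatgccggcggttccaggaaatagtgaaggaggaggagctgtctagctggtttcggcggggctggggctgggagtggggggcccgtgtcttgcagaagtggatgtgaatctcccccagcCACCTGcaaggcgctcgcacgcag
LSR, chr19:35248752-35249051, plus strand: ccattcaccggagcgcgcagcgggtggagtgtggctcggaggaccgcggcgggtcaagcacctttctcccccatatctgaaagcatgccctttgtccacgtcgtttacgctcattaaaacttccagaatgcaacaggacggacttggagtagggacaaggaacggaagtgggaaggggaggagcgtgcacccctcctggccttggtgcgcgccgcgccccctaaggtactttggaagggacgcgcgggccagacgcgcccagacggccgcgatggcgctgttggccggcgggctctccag
HIF1A, chr14:61695263-61695562, plus strand: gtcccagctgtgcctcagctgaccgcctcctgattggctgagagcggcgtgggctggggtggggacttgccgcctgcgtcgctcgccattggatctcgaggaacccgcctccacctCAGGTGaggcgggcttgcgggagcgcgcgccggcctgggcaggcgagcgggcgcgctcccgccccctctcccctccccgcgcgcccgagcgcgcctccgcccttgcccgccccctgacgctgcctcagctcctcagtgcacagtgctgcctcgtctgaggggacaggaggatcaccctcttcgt
LAMB3, KIF1A and HIF1A have other starts in RefSeq whose windows hold no such motif. On either strand, the E-box stood in 20.6% of all 35116 promoters and in 19% of the 16443 promoters of tested genes. It stood in 3 of 15 promoters of genes that passed as higher (20.0%) and 2 of 16 of those that passed as lower (12.5%), and with calls of either fit in 12 of 51 (23.5%) and 9 of 56 (16.1%). The 3 were of LAMB3, KIF1A and SIRT6, and reads of SIRT6 could not be separated from those of the construct. Some genes have several windows, and EPCAM and NGFR have none. Of 32 promoters of the epithelial junction list the E-box stood in 14 (43.8%), among them CLDN7 and SPINT1, which did not pass. None of these 14 belonged to LSR, EPCAM or ESRP1, the members of that list that passed in either fit. CAGCACC or GGTGCTG, a part of the RE1 element bound by the repressor REST, stood in 9 of 79 promoters of the axon and synapse list (11.4%), L1CAM and KIF5C included, in 1 of 15 promoters of genes that passed as higher (6.67%) and in 7.64% of promoters of tested genes. GGACAGC or GCTGTCC, the other part of RE1, stood in 4 of the 79 (5.06%), in 0 of the 15 and in 6.48% of promoters of tested genes. The median promoter held 11 CG dinucleotides among genes that passed as higher, 25.5 among those that passed as lower and 25 among tested genes, but 19 and 20 among the 51 and 56 promoters of genes that passed as higher and lower in either fit. A match is a description of letters and not a binding site.

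DHRS2 and SPANXB1 rose in K3R with small spread against their change. DHRS2, a short-chain dehydrogenase/reductase (GRCh38, chromosome 14, 23630115 to 23645639, plus strand), had 30.5, 54.3 and 35.5 CPM in K3R and 9.34, 12.1 and 10.3 CPM in Ctr. It rose 3.75-fold (log2 change 1.91 ± 0.21, adjusted p 0.00465, and 8.42e-05 with the block). Of 18 measured members of the short-chain dehydrogenase list DHRS2 alone passed, in either fit. DHRS9, a retinol dehydrogenase, averaged 1.14 ± 0.385 CPM in K3R and 0.396 ± 0.185 CPM in Ctr and did not pass (adjusted p 0.604), and the list's median log2 change was -0.13. SPANXB1, a cancer-testis antigen of the sperm nucleus encoded on the X chromosome, had 3.75, 11.6 and 16.9 CPM in K3R and 0.594, 1.59 and 2.96 CPM in Ctr. Its level varied widely over the library numbers of both groups, yet its matched log2 differences were 2.45, 2.78 and 2.47, and it rose 6.18-fold (log2 change 2.63 ± 0.25, adjusted p 0.00336). The related SPANXC had 0.809, 2.02 and 3.08 CPM in K3R and 0.162, 0.122 and 0.740 CPM in Ctr (adjusted p 0.12, and 0.0223 with the block). SPANX genes are near-identical copies, so reads may be split between them and the member is uncertain. Of 8 measured cancer-testis genes 1 passed as higher, 2 with the block and 0 as lower, and PRAME, an abundant antigen of tumours, averaged 154 ± 20.5 CPM in K3R and 143 ± 17.2 CPM in Ctr. Beside these lists, 0.0682% of all genes passed as higher, and 0.354% with the block.

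Genes of signalling and metabolism were among those that fell. HIF1A, the oxygen-regulated subunit of hypoxia-inducible factor 1, had 193, 135 and 143 CPM in K3R and 272, 189 and 215 CPM in Ctr. The groups overlapped in level because library 1-1 was the highest of each, and the matched log2 differences were -0.49, -0.48 and -0.59. It was 1.44-fold lower in K3R (adjusted p 0.0435, and 0.0109 with the block). MAP2K6, a kinase that activates p38, had 47.5, 30.7 and 29 CPM in K3R and 63.2, 47.1 and 55.4 CPM in Ctr. JCAD, a junction protein that binds the Hippo kinase LATS2, had 13.2, 17.8 and 13.5 CPM in K3R and 27.6, 42.9 and 39.4 CPM in Ctr. MAP2K6 overlapped in level and fell 1.57-fold (adjusted p 0.0435), and JCAD did not overlap and fell 2.43-fold (adjusted p 0.0153). PDE1C, a calmodulin-dependent phosphodiesterase of cyclic nucleotides, had 19, 13.7 and 16.0 CPM in K3R and 36.9, 30.9 and 32.5 CPM in Ctr. GYG2, a glycogenin that primes glycogen, had 14.6, 10.2 and 9.54 CPM in K3R and 24.9, 19.2 and 19.5 CPM in Ctr. Neither overlapped, and they fell 2.07-fold (adjusted p 0.0291) and 1.87-fold (adjusted p 0.01). LINC02532, a long noncoding RNA, had 1.04, 0.174 and 0.242 CPM in K3R and 3.83, 0.980 and 1.31 CPM in Ctr, with overlap (4.44-fold lower, adjusted p 0.0435). HIF1A, MAP2K6, PDE1C and LINC02532 passed in 0 of the 6 fits that left out a library, with adjusted p up to 0.234, 0.198, 0.178 and 0.226, and kept their sign. GYG2 lost its call without K3R 1-1, K3R 1-2 or Ctr 1-2 (adjusted p up to 0.0845) and JCAD without K3R 1-1, K3R 1-2, Ctr 1-1 or Ctr 1-2 (adjusted p up to 0.0816), and exons of HIF1A overlap HIF1A-AS1 on the other strand.

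Few genes of the surrounding lists passed. Of 33 measured genes of glycolysis and hypoxia, 0 passed, and 1 passed with the block as higher. This was SLC2A3, the glucose transporter GLUT3, with 92.2, 63.4 and 58.8 CPM in K3R and 67.6, 42.3 and 27.2 CPM in Ctr (adjusted p 0.167, and 0.03 with the block). NDRG1, a gene known to respond to hypoxia, averaged 99.7 ± 15.6 CPM in K3R and 77.4 ± 19.4 CPM in Ctr and did not pass (adjusted p 0.37), and the list's median log2 change was 0.11. Of 18 p38 and JNK kinase genes 1 passed (MAP2K6), of 22 angiomotin and Hippo genes 1 (JCAD), of 17 cyclic nucleotide phosphodiesterases 1 (PDE1C) and of 25 glycogen genes 1 (GYG2), each as lower, with median log2 changes of 0.00, -0.01, -0.19 and -0.03. Over all genes tested, 0.0496% passed as lower, 0.354% passed with the block as higher and 49.9% had a log2 change above 0. These lists were chosen with earlier results of these data known, so the 1 call in each is no result about its family. The same holds for the lists that hold DHRS2, SPANXB1, and FBN2 with MFGE8. MAPK11, a p38 kinase, averaged 18.1 ± 0.708 CPM in K3R and 14.2 ± 1.43 CPM in Ctr and did not pass (adjusted p 0.419). PDE7B and PDE11A lay lower in K3R without overlap, at 10.2 ± 1.02 and 1.17 ± 0.445 CPM in K3R and 15.4 ± 1.12 and 2.14 ± 0.345 CPM in Ctr, and did not pass (adjusted p 0.165 and 0.312). None of 22 YAP and TEAD targets passed. Their median log2 change was -0.16 and 5 of the 22 were above 0.

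With the replicate number as a block, 69 further genes passed, of which the 10 largest rises and 10 largest falls at a mean log2 CPM of at least 1 are named. Their matched differences are plotted per library, and 7 of the 20 have been given above. CEACAM5, the carcinoembryonic antigen, had 59.6, 13.0 and 6.16 CPM in K3R and 15.3, 2.94 and 2.16 CPM in Ctr. It spanned a wide range within each group and overlapped, with matched log2 differences of 1.95, 2.10 and 1.46 (adjusted p 0.152, and 0.0261 with the block). BMP7, a secreted ligand of the BMP family, had 7.57, 10.5 and 5.92 CPM in K3R and 2.48, 2.45 and 2.22 CPM in Ctr (adjusted p 0.0528, and 0.00574 with the block). PTAFR, the receptor for platelet-activating factor, had 4.51, 5.03 and 1.99 CPM in K3R and 2.16, 1.41 and 0.456 CPM in Ctr. BMP7 did not overlap between groups, and PTAFR did. LRRC4B, a synaptic adhesion protein, KLRG2, a lectin-like membrane protein, and RAB11FIP4, an effector of the recycling GTPase RAB11, were 2.42-fold, 2.37-fold and 2.22-fold higher in K3R, without overlap. Among the lower genes, SEMA3E, a secreted guidance cue, had 3.0, 1.91 and 1.81 CPM in K3R and 4.53, 5.21 and 6.78 CPM in Ctr. ADAM19, a membrane metalloprotease, had 8.66, 9.83 and 11.1 CPM in K3R and 19.4, 28.8 and 14.6 CPM in Ctr. RGS2, which shortens G protein signals, had 4.91, 6.07 and 9.18 CPM in K3R and 13.4, 20.5 and 11.9 CPM in Ctr. These 3 did not overlap, and the matched differences of ADAM19 and RGS2 were smallest in library 2-2, at -0.40 and -0.37. SGCD, a sarcoglycan, FZD8, a Wnt receptor, MOB3B, a MOB-family adaptor, and NPY4R2, a copy of a receptor for pancreatic polypeptide, were 1.87-fold, 1.85-fold, 2.32-fold and 1.75-fold lower in K3R, and NPY4R2 shares near-identical sequence with NPY4R. With the block, leaving out 1 library gave 17 calls without K3R 1-1, 11 without K3R 1-2, 24 without K3R 2-2, 72 without Ctr 1-1, 15 without Ctr 1-2 and 37 without Ctr 2-2. Of these, 23 of the 24 calls without K3R 2-2, 45 of the 72 without Ctr 1-1 and 29 of the 37 without Ctr 2-2 were among the 88 calls on all libraries, as were all calls of the other 3 fits.

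**Figure D3:**
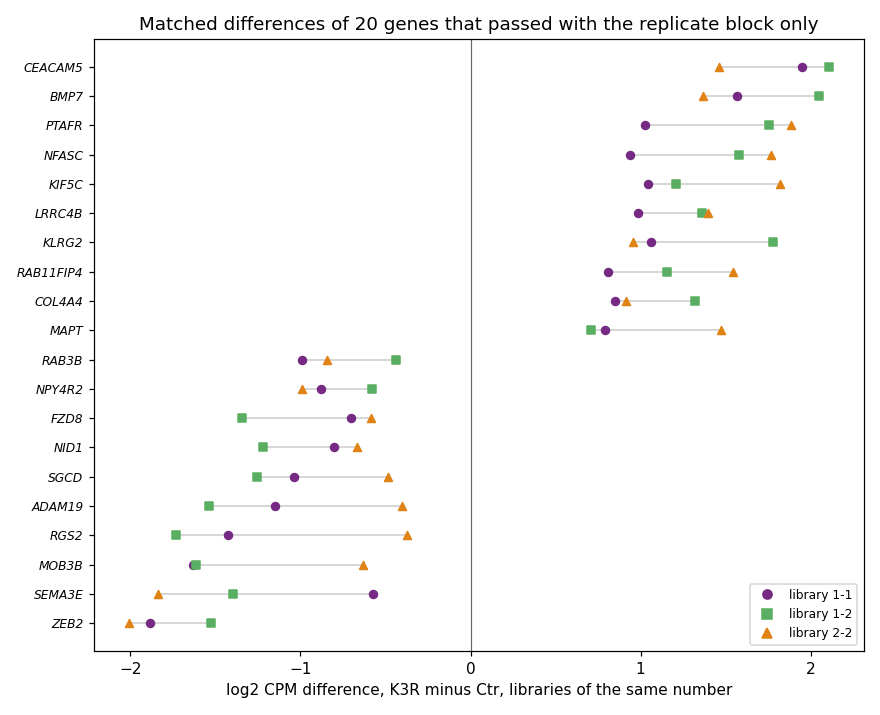
For 20 genes that passed only with the replicate number as a block, the x axis gives the log2 CPM difference of K3R minus Ctr for libraries 1-1, 1-2 and 2-2. The 10 genes of the upper rows have all 3 differences above 0 and the 10 of the lower rows all below 0, as the choice of these genes requires, and RGS2 reaches from -1.73 to -0.37.

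Most of the other lists held no gene that passed. Of all genes tested, 0.354% passed with the block as higher and 49.9% had a log2 change above 0. Of 12 Wnt feedback targets 0 passed, and 2 passed with the block as higher: NOTUM, a secreted enzyme that inactivates Wnt, with 1.33, 2.55 and 2.78 CPM in K3R and 0.648, 0.551 and 0.683 CPM in Ctr, and NKD1, an inhibitor of Dishevelled, with 8.32, 7.06 and 8.52 CPM in K3R and 4.70, 3.92 and 4.90 CPM in Ctr. Of 38 NRF2 targets 0 passed and 1 with the block, OSGIN1, at 90.2, 167 and 203 CPM in K3R and 72.7, 101 and 117 CPM in Ctr. A549 cells are known for constitutive NRF2 activity, and SRXN1, a reductase of peroxiredoxins, averaged 78.4 ± 17.5 CPM in K3R and 46.7 ± 7.19 CPM in Ctr without passing (adjusted p 0.251, and 0.0539 with the block). The NRF2 list had a median log2 change of 0.15 with 31 of 38 above 0. None of 33 p53 targets passed, and 3 of 33 had a log2 change above 0 (median -0.20), with ZMAT3 at 18.3 ± 3.13 CPM in K3R and 24.6 ± 2.63 CPM in Ctr (adjusted p 0.555). None of 25 NF-kB targets passed (median 0.23), and NFKBIA, the inhibitor of NF-kB, averaged 72.5 ± 5.37 CPM in K3R and 59.0 ± 3.03 CPM in Ctr (adjusted p 0.279).

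Proliferation and translation genes showed small changes that did not pass. Of 37 G2/M genes 34 had a log2 change above 0 (median 0.18), and of 37 G1/S genes 31 (median 0.11), with 0 calls in either list. NEK2, a centrosomal kinase of G2/M, averaged 53.3 ± 10.1 CPM in K3R and 44.2 ± 16.0 CPM in Ctr (adjusted p 0.928). Of 29 genes of MYC and ribosome biogenesis 27 were above 0 (median 0.11), of 79 cytosolic ribosomal proteins 70 (median 0.06) and of 13 mitochondrially encoded mRNAs 13 (median 0.13), again with 0 calls. These shares are descriptions and carry no test. Of all genes tested, 49.9% had a log2 change above 0 and 0.192% passed with the block as lower. Of 27 Polycomb and MBT genes 0 passed and SFMBT2, an MBT-domain repressor, passed with the block as lower, with 16.2, 25.9 and 32.0 CPM in K3R and 26.3, 54.7 and 43.0 CPM in Ctr (adjusted p 0.0687, and 0.0298 with the block). No gene passed in either fit among 19 TGF-beta targets (median log2 change -0.13), 23 genes of lung lineage (-0.08), 30 immediate early genes (0.00), 23 heat shock genes (0.11), 36 interferon-stimulated genes (0.03), 31 ATF4 targets (0.02), 31 genes of cholesterol and fatty acid synthesis (0.05), 46 DNA repair genes (0.00), 28 receptor tyrosine kinases (-0.06) and 10 oncofetal genes (0.10).

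**Figure D4:**
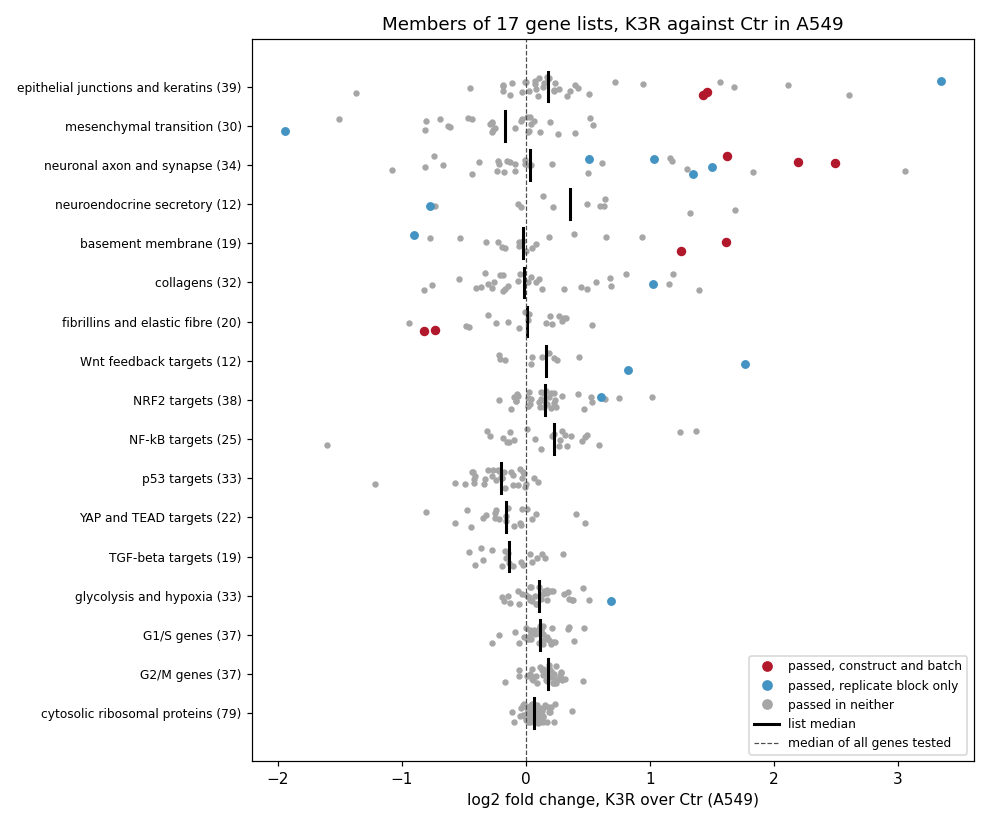
Each point is 1 gene of a list named on the y axis, with the number measured in parentheses, at its log2 fold change of K3R over Ctr in A549. Black bars are list medians and the dashed line the median of all genes tested (-0.0004). Called points sit to the right in the epithelial and neuronal lists, at 1.43 to 2.49 for those in red, while the p53 list lies mostly left of the line with no called gene.

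K3R was set against the other SIRT6 forms in A549. No gene passed between K3R and WT (0 of 16120, 0%), and DESeq2 and the block also gave 0 calls. An unadjusted p under 0.05 was found for 116 genes, fewer than that threshold alone would give if no gene differed. The test was thus conservative for this contrast, and the lack of calls does not show that K3R and WT are alike. SIRT6 itself differed by a log2 of 0.03 ± 0.22 between K3R and WT. Between K3R and K3Q 1 gene passed (0.0062%), SPANXB1, which was higher in K3R by a log2 of 2.29 ± 0.24 (adjusted p 0.0204). With the block 7 genes passed and with DESeq2 23, and leaving out 1 library gave 0 or 1. SPANXB1 passed without K3R 1-2 (adjusted p 0.0424) and did not pass without K3R 1-1, K3R 2-2 or any of the 3 K3Q libraries (adjusted p up to 0.352, log2 differences of 2.08 to 2.37). A549 K3Q libraries 1-2 and 2-2 were nearly alike, at -12.08 and -13.01 on principal component 1, so the K3Q group may hold fewer than 3 independent samples. Library 2-2 scored 53.74 in Ctr, 51.08 in K3R and 50.95 in WT. In comparisons with K3Q, the construct and this difference between 2-2 libraries therefore cannot be told apart.

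The comparisons of K3R, WT and K3Q with Ctr share the 3 Ctr libraries, so their values are given side by side without a count of shared calls. For DHRS2 the log2 change against Ctr was 1.91 with K3R, 1.84 with WT and 0.29 with K3Q. KIF1A changed by 2.49 with K3R, 2.52 with WT and 0.84 with K3Q, NGFR by 2.53, 2.44 and 0.26, and SPANXB1 by 2.63, 2.58 and 0.33 in the same order. The direct differences between K3R and K3Q were 1.62 for DHRS2 (adjusted p 0.059), 1.65 for KIF1A (adjusted p 0.315) and 2.27 for NGFR (adjusted p 0.174), and these did not pass. LSR changed by 1.43 with K3R, 1.26 with WT and 1.16 with K3Q, and EPCAM by 1.46, 1.13 and 1.30. HIF1A changed by -0.52 with K3R, -0.47 with WT and -0.52 with K3Q, and FBN2 by -0.73, -0.60 and -0.96. Across the 18 genes other than SIRT6, K3R minus WT lay between -0.55 ± 0.36 for LINC02532 and 0.33 ± 0.22 for EPCAM.

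**Figure D5:**
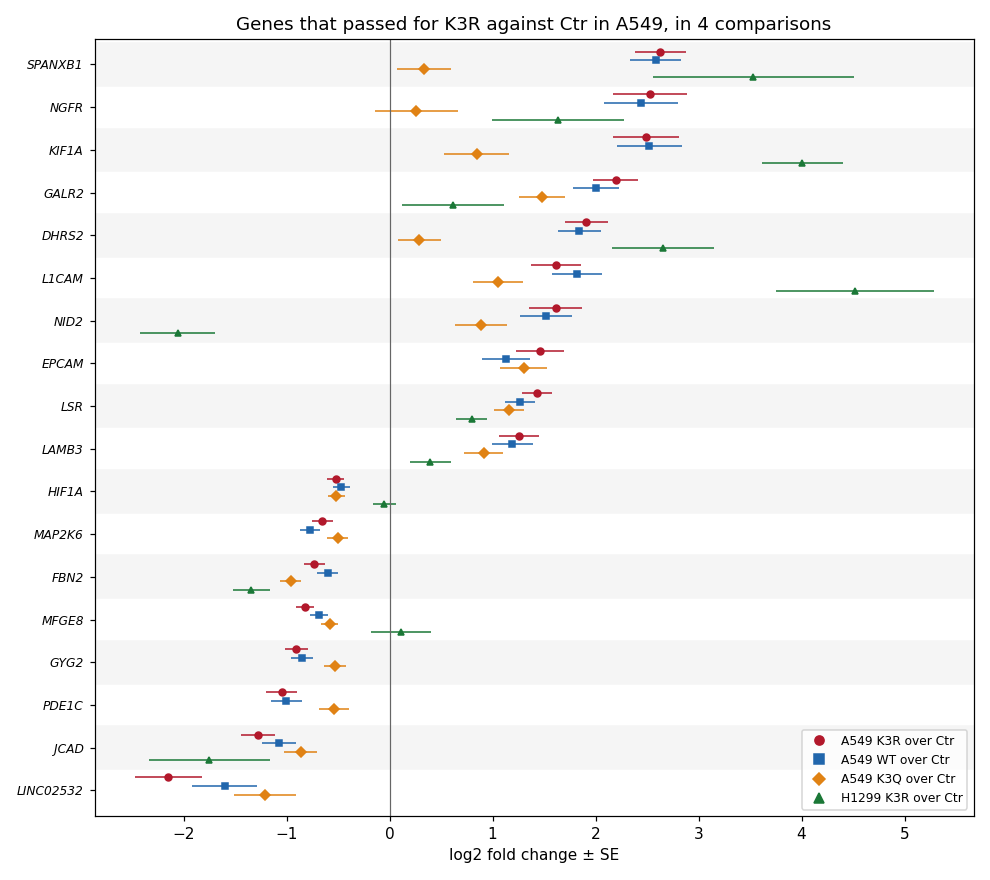
Log2 fold change over Ctr with its standard error (bars) for the 18 genes that passed for K3R in A549 other than SIRT6, with K3R (red), WT (blue) and K3Q (orange) in A549, which share their Ctr libraries, and K3R in H1299 (green), where no green point means that the gene was not tested. Red and blue points lie close together, orange points of SPANXB1, NGFR, KIF1A and DHRS2 lie at 0.26 to 0.84, and NID2 is on opposite sides in A549 (1.61) and H1299 (-2.06).

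The same construct in H1299 shares no library with A549. There 528 of 16262 genes passed for K3R against Ctr (3.25%). Of the 18 genes called in A549 besides SIRT6, 13 were tested in H1299 and 11 changed with the same sign, 8 of 9 higher and 3 of 4 lower. Over the 14346 genes tested in both lines, 8684 had the same sign. Of the 13, 6 passed in H1299 and 5 of these in the same direction, and they are 6 of the 471 genes called in H1299 among those tested in both lines. KIF1A rose by a log2 of 4.01 ± 0.39 in H1299, L1CAM by 4.52 ± 0.77, DHRS2 by 2.65 ± 0.49 and LSR by 0.80 ± 0.15, and FBN2 fell by 1.34 on the log2 scale. NID2 fell in H1299, by 2.06 on the log2 scale (adjusted p 0.00955). HIF1A (-0.05 ± 0.12) and MFGE8 (0.11 ± 0.29) did not pass there. EPCAM, PDE1C, MAP2K6, GYG2 and LINC02532 were not tested in H1299. With the genes that passed with the block included, 53 of 65 had the same sign and 21 passed in H1299, 18 of them in the same direction. ZEB2 was among these, with a log2 change of -0.92 ± 0.18 in H1299 (adjusted p 0.0151). Leaving out 1 H1299 library gave 102 to 553 calls there: 102 without K3R 1-1, 178 without K3R 2-2, 224 without Ctr 1-2 and 214 without Ctr 2-2.

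The difference between the lines was tested directly. The K3R effect differed between A549 and H1299 in 86 of 18102 genes (0.475%). Among the 18 genes this held for NID2 alone, whose log2 change was higher in A549 by 3.66 ± 0.42 (adjusted p 0.000237). KIF1A (adjusted p 0.336), DHRS2 (0.852), L1CAM (0.178) and LSR (0.345) did not pass in this test. The other genes with the lowest p were ones that did not pass in A549. SHROOM3, an actin regulator of apical constriction, had 34.4, 28.0 and 35.8 CPM in A549 K3R and 30.4, 30.3 and 29 CPM in Ctr, and its log2 change was 0.13 in A549 and -1.81 in H1299. TNS1, a tensin of focal adhesions, had 7.11, 4.11 and 1.87 CPM in A549 K3R and 12.2, 4.04 and 1.77 CPM in Ctr, with log2 changes of -0.31 in A549 and 5.43 in H1299. TFPI, the inhibitor of the tissue factor pathway, had 50.9, 28.8 and 24.9 CPM in A549 K3R and 50.7, 37.9 and 37.1 CPM in Ctr, with log2 changes of -0.32 and 1.33. Leaving out 1 library of either line gave 30 to 90 calls, with 30 without H1299 K3R 1-1, 36 without A549 K3R 1-1, 38 without H1299 Ctr 2-2 and 39 without H1299 K3R 2-2.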

How the data were processed

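RNA was sequenced from A549 and H1299 cells with a SMARTer mRNA kit, per the labels' protocols. The deposited table holds raw read counts, not normalised, for 59385 gene symbols in each of 24 libraries. FastQC, cutadapt, STAR and featureCounts are named, with build GRCh38, in the submitters' processing notes, which give no versions, strand setting or annotation release. Reads of near-identical copies and of overlapping genes cannot be told apart in these counts.

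The 12 A549 libraries were fitted together with construct and batch (filterByExpr, TMM, edgeR 4.0.16 quasi-likelihood test, R 4.3.3). P-values are Benjamini-Hochberg adjusted over all genes tested and pass under 0.05. The SE is the absolute log2 change over the square root of F. CPM uses TMM-scaled library sizes, and principal components used a prior count of 2. H1299 was fitted likewise, and the interaction used all 24 libraries. The alternatives were no batch term, RLE scaling, a replicate block, DESeq2 1.42.0, no low-count filter, biological replicate 1 summed, batch 2 alone, other choices of libraries and leaving out each library. Leaving out libraries 2-2 and changing the libraries of the block fit were chosen after seeing the data. The code was tested on simulated counts.

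Deviations from the group means of K3R and Ctr libraries of the same number correlated at 0.650, 0.446 and 0.657 (numbers 1-1, 1-2 and 2-2, across genes). The numbers were therefore taken to pair these libraries. Those of different numbers correlated at -0.571 to -0.0367. Deviations sum to 0 within a group, so negative values there follow from the positive ones and add no separate support. Deviations hold the batch shift too. The K3Q libraries, which enter the spread of the block fit and of the fit with construct and batch, were not paired so clearly.

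The comparison, gene lists and alternatives were chosen with earlier results of these data known. Named are the sirtuins, every gene called with construct and batch, the 10 largest rises and falls called with the block alone (mean log2 CPM of at least 1, same sign in 3 matched differences), up to 4 members of a described list by call and then p, further list members chosen after their values were seen, and the 3 lowest p in each direction of the interaction. Coordinates are from GENCODE 29, joined by symbol (14438 of 16120 tested genes matched), which may differ from the submitters' release. Promoters are from RefSeq on GRCh38.p14. p-values measure the spread between these libraries only.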

Additional observations from a re-analysis of the deposited data

Results flagged for a closer look

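Of the genes chosen by the naming rule given with the methods or called with the replicate block, 14 had a K3R effect that differed between A549 and H1299 by the interaction test (edgeR, adjusted over 18102 genes). NID2, SHROOM3, MVB12B, TFPI, FAM210A and TNS1 were named for the lowest p of this same test. Their place among the 14 therefore follows from the choice, and the number 14 is no result. Of all 18102 genes tested, 86 differed (0.475%). The differences below are the A549 minus the H1299 log2 change.

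The K3R effect on NID2 was higher in A549 by 3.66 (adjusted p 0.000237). For the kinesin KIF5C the difference was 1.57 (adjusted p 0.0172), with a log2 change of 1.35 in A549 and -0.23 in H1299. GAD1, which makes the transmitter GABA, differed by 1.78 (adjusted p 0.0329), with 2.06 in A549 and 0.30 in H1299. CCNA1, a cyclin best known from the testis, differed by 3.09 (adjusted p 0.0453), with 4.01 in A549 and 0.85 in H1299. CCNA1 counts in A549 were 27, 31 and 19 in K3R and 4, 1 and 0 in Ctr, so its fitted change rests on few reads.

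SEMA3E differed by -1.97 (adjusted p 0.00206), with -1.32 in A549 and 0.65 in H1299. SFMBT2 differed by -2.99 (adjusted p 0.00365), with -0.74 and 2.27. SIRPA, a receptor that binds CD47, was lower with K3R in both lines and differed by 1.60 (adjusted p 0.00365), with -0.70 in A549 and -2.30 in H1299.

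SHROOM3 differed by 1.94 (adjusted p 0.000237) and MVB12B, an ESCRT-I subunit, by 2.05 (adjusted p 0.00206). MVB12B had a log2 change of -0.27 in A549 and -2.33 in H1299. TFPI differed by -1.66 (adjusted p 0.000215), FAM210A by -1.25 (adjusted p 0.00106) and TNS1 by -5.74 (adjusted p 0.00118). FAM210A had a log2 change of -0.06 in A549 and 1.18 in H1299.

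In the matrix lists, COL5A1, a chain of collagen V, differed by -2.70 (adjusted p 0.012), with -0.75 in A549 and 1.95 in H1299. FBN1 differed by -0.80 (adjusted p 0.0212), with -0.31 in A549 and 0.49 in H1299.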

How the results depend on the processing

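SIRT6 passed under every alternative tried, with log2 changes of 6.16 to 6.67. The number of genes called for K3R against Ctr in A549 (19, with 11 higher and 8 lower) was the same with RLE scaling. It was 5 (4 and 1) with no batch term, 88 (57 and 31) with the replicate block, 315 (171 and 144) with no low-count filter, 162 (91 and 71) with DESeq2, 1 (1 and 0) with biological replicate 1 summed, in batch 2 alone and with only the 6 libraries compared, and 6 (5 and 1) without the K3Q libraries. It was 394 (175 and 219) with libraries 2-2 left out, 463 (229 and 234) with the replicate block without the K3Q libraries, and 301 (148 and 153) with the block on the 6 libraries. Leaving out 1 library gave 5 to 19 calls, 5 to 10 higher and 0 to 9 lower. The 19 genes were all among the calls with the block, DESeq2, no filter and libraries 2-2 left out.

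K3R against WT gave 5 calls with no filter and 0 otherwise. K3R against K3Q (1 call) gave 0 with no batch term, with replicate 1 summed and in batch 2 alone, 7 with the block, 228 with no filter, 23 with DESeq2 and 0 to 1 with 1 library left out. In H1299 (528) the block gave 1392, no filter 1276 and leaving out 1 library 102 to 553. The interaction (86) gave 301 with the block, 434 with no filter and 30 to 90 with 1 library left out. The cause of these moves was not tested. No gene called with construct and batch or with the block reversed its sign in an alternative that tested it. Other named genes were not checked for this. No alternative moved the median log2 change of all genes by over 0.1. Genes under 1 CPM rest on few reads in each library, and small changes in them were not detectable at this depth.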
